A study of Mus musculus with 6 samples.

Results

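The genes described here are a named set of chemokines with measurable mRNA in these mouse hearts, together with Csf1, the macrophage growth factor. Other chemokine ligands that also passed the filter used here are given as a separate list. They were chosen by name and selected on their expression level in these libraries, with the results of the treatment comparisons already known. The level thus chose the members, and the number of members that differ between groups is no evidence about chemokines as a class. Of 9 named genes, 8 were found by symbol among the 16229 genes of the table (Csf1, Cxcl12, Cxcl14, Cxcl16, Cx3cl1, Ccl9, Ccl11 and Ccl12), and Ccl6 was not analysed here. All 8 passed the filter on low values, which kept genes averaging 0 or more on the log2 CPM scale. CPM stands for reads of a gene per unit of library size, here adjusted between libraries. The member nearest to that limit was Ccl12, with a mean of 0.24 log2 CPM, and the chemokine just below it was Cxcl1, with a mean of -0.052.

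Poly-A RNA came from hearts of male C57BL/6 mice, a common inbred strain, aged 8 to 10 weeks. Of 6 libraries, 2 were from untreated mice, 2 from mice given the factor Xa inhibitor rivaroxaban (3 mg/kg for 7 days) and 2 from mice given the factor IIa (thrombin) inhibitor dabigatran (10 mg/kg for 7 days). The doses of the drugs differ, and each drug was given at 1 dose. According to the protocol text all samples held infarcted and adjacent tissue, but no label says whether the untreated mice were operated on, nor whether the libraries of a group came from separate animals. The p-values therefore measure only the spread between these libraries, which may be technical.

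The libraries held 27176892 to 43798222 reads in the listed genes. Heart muscle genes dominated: 8 cardiomyocyte markers summed to between 92800 and 98350 CPM in every library. Of the list of genes known from acute infarcts and of neutrophil genes, Spp1, S100a8, S100a9 and Il1b had between 5 and 29 reads in each library. Postn, a matrix gene of activated fibroblasts in the same list, was higher, with 1412 to 2330 reads (50.6 to 63.6 CPM), most of the list's sum of 54.5 to 70.1 CPM. Of 8 neutrophil markers, 5 were listed, with summed levels of 2.35 to 3.69 CPM. Of the acute infarct chemokines, Cxcl5 had 4 to 19 reads per library, Cxcl1 had 17 to 54 and Ccl7 had 38 to 106. Cthrc1, in the same list, had 4 to 15. Tnf had 34 and 40 reads in untreated libraries against 7 to 23 in treated ones, and it was below the filter and not tested. Il6, Ccl2 and Timp1, the other genes of this list of 11, were not analysed here.

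Chemokines are small secreted proteins that steer leukocytes along concentration gradients and bind G protein-coupled receptors on them. They are named by the spacing of their first cysteines into CC, CXC and CX3C families. In the heart, Cxcl12 is made by stromal and endothelial cells and holds cells that carry Cxcr4, whereas CC chemokines such as Ccl12 recruit monocytes through Ccr2. Csf1 is not a chemokine; it binds the receptor tyrosine kinase Csf1r and sustains monocytes and macrophages.

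Csf1 was lower in the hearts of both drug groups, and Cxcl14 was lower with rivaroxaban than in either of the other groups. No other member passed the test in any comparison. Since untreated libraries serve in both drug comparisons, the values of these comparisons are not independent of each other. Each call also rested on limma's mean-variance trend: without it the same differences had limma adjusted p of 0.182 (rivaroxaban) and 0.22 (dabigatran) for Csf1, and of 0.185 (against untreated) and 0.481 (against dabigatran) for Cxcl14. In bulk tissue, fewer cells of a type and less RNA per cell cannot be told apart.

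Csf1 lies on mm10 (GRCm38) chromosome 3 from 107741048 to 107760469 on the minus strand (ENSMUSG00000014599, protein-coding, 7 annotated transcripts). Cxcl14, a CXC chemokine of epithelia and stroma whose receptor is debated, lies on chromosome 13 from 56288643 to 56296551 on the minus strand (ENSMUSG00000021508, protein-coding). The promoter windows of these genes are shown because they are the members that changed. Each is 300 bases long and spans the RefSeq start (GRCm38.p6), with most of its bases upstream, at chr3:107760420-107760719 and chr13:56296502-56296801, read 5′ to 3′ on the minus strand. Capitals mark matches, on either strand, to a kappaB site (the motif of NF-kB factors), to AGAACA (a glucocorticoid receptor half-site) or to GGGCGG (the GC box of Sp1).
Csf1 promoter: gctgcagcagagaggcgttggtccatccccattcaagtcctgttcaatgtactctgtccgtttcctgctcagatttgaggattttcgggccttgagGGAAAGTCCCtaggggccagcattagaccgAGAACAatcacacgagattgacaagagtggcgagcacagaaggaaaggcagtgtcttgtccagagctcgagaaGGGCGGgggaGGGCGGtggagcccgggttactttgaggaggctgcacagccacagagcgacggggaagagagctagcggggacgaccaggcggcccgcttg
Cxcl14 promoter: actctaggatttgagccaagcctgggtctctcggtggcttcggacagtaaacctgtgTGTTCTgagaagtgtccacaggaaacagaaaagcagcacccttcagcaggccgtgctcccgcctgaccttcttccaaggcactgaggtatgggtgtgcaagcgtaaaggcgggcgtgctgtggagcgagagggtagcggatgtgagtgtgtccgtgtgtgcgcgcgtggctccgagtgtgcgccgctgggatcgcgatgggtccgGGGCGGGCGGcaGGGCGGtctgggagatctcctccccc

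The Csf1 window held 1 kappaB match, the first block of capitals, 154 bases before the start site. It also held 1 AGAACA match 124 bases before the start and 2 GC boxes. The Cxcl14 window held 1 half-site match on the opposite strand, 193 bases before the start, and 3 GC boxes downstream of the start, of which the first and the next overlap. Over 32851 mouse windows of the same length, 4.51% held a kappaB match, 19.0% a half-site and 35.7% a GC box. Of the other members, Cxcl12, Cx3cl1, Ccl9 and Ccl12 were in the promoter table. Among them, only Ccl9 held a kappaB match, 35 bases before its start, and it alone held an AP-1 match (TGANTCA, found in 7.81% of windows). Cx3cl1, Ccl9 and Ccl12 held a TATA box match (TATAAA, 13.6% of windows). A match describes letters in a window and is not evidence of binding.

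Levels can be compared between genes only per length, here as CPM per kilobase of annotated exons. Among the members Cxcl12 had the highest level, 24.2 to 29.7 CPM per kilobase over the 6 libraries, followed by Csf1 with 13.2 to 27.4 and Cxcl14 with 6.93 to 14.2. Cxcl16 had 5.18 to 6.56, Cx3cl1 4.06 to 5.62, Ccl9 2.83 to 4.51, Ccl11 2.41 to 4.77 and Ccl12 1.18 to 3.33 CPM per kilobase. The ranges of neighbours in this order overlapped in each case except between Cxcl14 and Cxcl16. Compared within each library, a member exceeded the next in 6 of 6 libraries, except that Cxcl16 exceeded Cx3cl1 in 4 of 6 and Ccl9 exceeded Ccl11 in 4 of 6. The order within these last pairs thus differed between libraries. The order of the means was the same with the length of the longest transcript in place of all exons. This order is of the members only, not of all chemokines in these hearts. Of the other ligands, Ccl21b was at 27.0 to 44.1 and Pf4 at 17.3 to 26.0 CPM per kilobase of exons. Both are named after their values were seen. The range of Ccl21b overlapped that of Cxcl12 and reached higher. The member chemokines held 40.6 to 49.2% of the summed level per kilobase of the 24 listed chemokine ligands. The members also differed in how much they varied: the highest library exceeded the lowest 1.23-fold for Cxcl12, 1.27-fold for Cxcl16, 2.08-fold for Csf1, 2.05-fold for Cxcl14 and 2.82-fold for Ccl12, the last with only 17 to 51 reads per library.

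**Figure D1:**
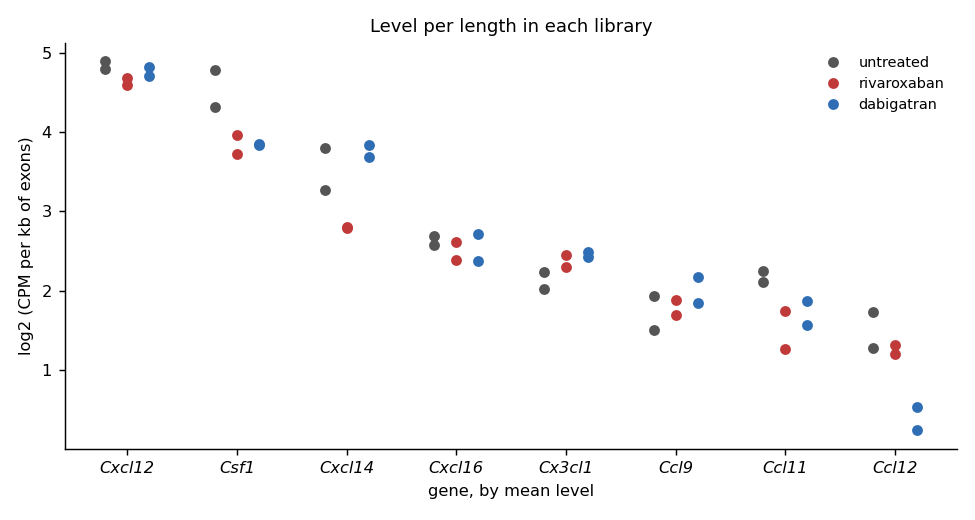
Level of the 7 member chemokines and of Csf1 per kilobase of exons (log2 CPM per kb, y axis) in the 6 libraries, with genes in order of their mean level and 1 point per library, coloured by group. Among these genes Cxcl12 stands highest, at 24.2 to 29.7 CPM per kilobase, and Ccl12 lowest, at 1.18 to 3.33.

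The first comparison asked which members differed after 7 days of rivaroxaban. Csf1 and Cxcl14 fell by similar amounts, 2 of 8 members against 2.46% of all tested genes called in either direction and 0.986% called lower. None of the 8 was called higher. The median log2 difference of the 8 members was -0.22, against 0.005 over the 12981 tested genes. Libraries did not overlap between the groups for 5 of 8 members, a share close to the 50.6% of all genes, so that count is no result about the members.

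Csf1 was at 7.18 and 6.72 log2 CPM in untreated replicates 8 and 9, at 6.36 and 6.12 in rivaroxaban replicates 14 and 15, and at 6.25 and 6.23 in dabigatran replicates 10 and 12. Every treated library lay below both untreated libraries, which themselves differed more than the treated ones. In reads this was 4128 and 3409 in untreated libraries against 2031 to 3280 in treated ones. With rivaroxaban the mean was 6.24 ± 0.17 against 6.95 ± 0.32 log2 CPM (SD, n = 2 each), or 0.612 of the untreated level (log2 -0.71, SE 0.12, 95% interval -0.98 to -0.44, limma adjusted p = 0.0149). Without untreated replicate 8 the difference was -0.48 and did not pass (limma adjusted p = 0.0507), and without rivaroxaban replicate 15 it was -0.59 (limma adjusted p = 0.167). Without untreated replicate 9 it was larger, and the range over the libraries left out was -0.94 to -0.48.

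Cxcl14 was at 3.67 and 3.68 log2 CPM in the rivaroxaban libraries, at 4.15 and 4.67 in the untreated libraries and at 4.71 and 4.55 in the dabigatran libraries. The rivaroxaban libraries were nearly equal and lay below all others, while the untreated and dabigatran libraries overlapped. With rivaroxaban the level was 0.600 of the untreated one (log2 -0.74, SE 0.14, 95% interval -1.05 to -0.43, limma adjusted p = 0.0226; reads 461 and 372 against 504 and 824). The log2 difference was -0.475 without untreated replicate 9, where it did not pass (limma adjusted p = 0.0712), and it was -1.0 without untreated replicate 8. With either rivaroxaban library left out it stayed at -0.73 and -0.74 but did not pass (limma adjusted p = 0.0972 and 0.163).

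**Figure D2:**
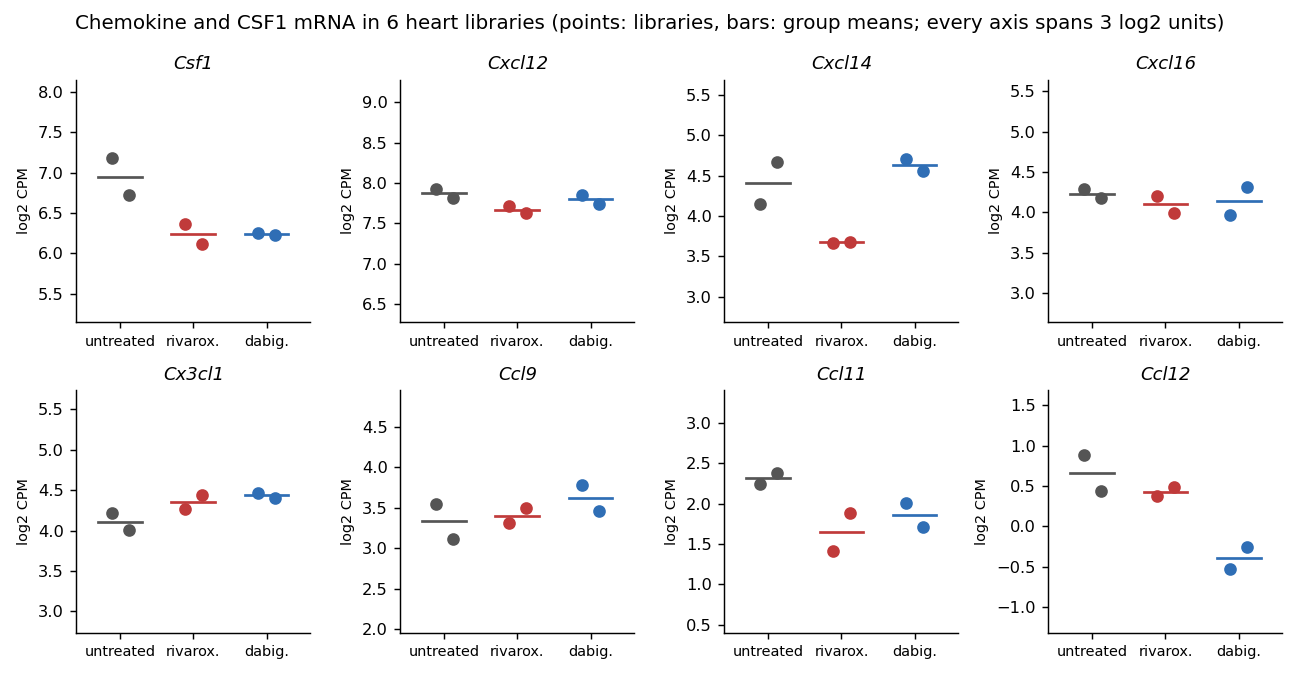
Log2 CPM (y axis) of Csf1 and the 7 chemokines in the untreated, rivaroxaban and dabigatran libraries (x axis); points are libraries, bars are means of 2, and every panel spans the same range on the log2 scale. All 4 treated libraries lie at 6.12 to 6.36 for Csf1, below 6.72 and 7.18 in the untreated libraries, and Cxcl14 is low only in the rivaroxaban libraries, at 3.67 and 3.68.

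None of the remaining CXC and CX3C chemokines passed in any comparison. Cxcl12, the ligand of Cxcr4 and Ackr3 (chromosome 6, 117168535 to 117181367), was at 7.93 and 7.82 log2 CPM in untreated libraries, 7.71 and 7.63 with rivaroxaban and 7.85 and 7.74 with dabigatran. The rivaroxaban libraries were lowest, at 0.870 of the untreated level (log2 -0.20, 95% interval -0.34 to -0.068), but this did not pass (limma adjusted p = 0.119). With dabigatran the interval was -0.21 to 0.06 (log2 -0.07, limma adjusted p = 0.622). It had 5784 to 9338 reads per library and the narrowest intervals among the members.

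Cxcl16, a membrane-bound ligand of Cxcr6 that is also shed in soluble form (chromosome 11, 70453983 to 70459984), was at 4.29 and 4.18 log2 CPM in untreated libraries, 4.21 and 3.99 with rivaroxaban and 3.97 and 4.31 with dabigatran. The groups overlapped in every comparison, and the 95% intervals ran from -0.40 to 0.13 for rivaroxaban and from -0.36 to 0.18 for dabigatran on the log2 scale. Its gene overlaps Zmynd15 on the opposite strand, and the sources used here do not say whether reads were counted by strand.

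Cx3cl1, or fractalkine, is tethered to endothelial and other cells and binds Cx3cr1 (chromosome 8, 94772009 to 94782427). It was at 4.22 and 4.0 log2 CPM in untreated libraries, 4.27 and 4.44 with rivaroxaban and 4.47 and 4.41 with dabigatran. The treated libraries lay above the untreated ones, by a smallest gap of 0.056, and the differences did not pass (log2 0.25, limma adjusted p = 0.231 with rivaroxaban; log2 0.33, limma adjusted p = 0.133 with dabigatran). It was the member with the most positive difference in both comparisons.

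The CC chemokines had fewer reads. Ccl9, a ligand of Ccr1 made by myeloid cells (chromosome 11, 83572919 to 83578636), was at 3.55 and 3.12 log2 CPM in untreated libraries, 3.31 and 3.50 with rivaroxaban and 3.79 and 3.46 with dabigatran, and the groups overlapped. Its differences were 0.07 with rivaroxaban (limma adjusted p = 0.848) and 0.29 with dabigatran (limma adjusted p = 0.414). Ccl11, or eotaxin, which attracts eosinophils through Ccr3 (chromosome 11, 82057823 to 82062955), was at 2.24 and 2.39 log2 CPM in untreated libraries, 1.42 and 1.88 with rivaroxaban and 2.01 and 1.71 with dabigatran. The untreated libraries were highest, and the differences of -0.66 (limma adjusted p = 0.106) and -0.46 (limma adjusted p = 0.300) did not pass. Ccl11 had 95 to 167 reads per library, and its interval with rivaroxaban ran from -1.09 to -0.24.

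Ccl12, a monocyte attractant that binds Ccr2 (chromosome 11, 82101845 to 82103400), was at 0.89 and 0.44 log2 CPM in untreated libraries, 0.38 and 0.48 with rivaroxaban and -0.52 and -0.25 with dabigatran. The dabigatran libraries were lowest, with 17 and 34 reads against 51 and 42 in untreated libraries and 45 and 39 with rivaroxaban. The difference from untreated was the largest in size among the members with dabigatran, but it did not pass (log2 -1.05, SE 0.28, 95% interval -1.67 to -0.44, limma adjusted p = 0.0952). With rivaroxaban it was -0.24 (95% interval -0.85 to 0.38, limma adjusted p = 0.703).

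The dabigatran comparison asked the same of the thrombin inhibitor. Csf1 was the only member that passed, 1 of 8 against 1.88% of all genes in either direction and 0.501% lower, and none of the 8 was called higher. Its mean of 6.24 ± 0.01 log2 CPM (SD, n = 2) was 0.611 of the untreated level (log2 -0.71, SE 0.12, 95% interval -0.98 to -0.44, limma adjusted p = 0.0183). Without untreated replicate 8 the difference was -0.48 (limma adjusted p = 0.0692), and without dabigatran replicate 10 it was -0.72 (limma adjusted p = 0.0803). Cxcl14 had a difference of 0.22 that did not pass (95% interval -0.094 to 0.53, limma adjusted p = 0.525). The members' median difference was -0.08, and libraries did not overlap for 4 of 8 members against 43.6% of all genes.

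Compared with each other, the drug groups differed in 1 member. Cxcl14 with rivaroxaban was at 0.516 of its level with dabigatran (log2 -0.955, SE 0.14, 95% interval -1.27 to -0.64, limma adjusted p = 0.0447; 461 and 372 reads against 697 and 1022). Of all tested genes, 10 were called in this comparison (0.077%), all lower with rivaroxaban, and Cxcl14 had the highest p among them. The call ended under several settings although the size barely moved: with 1 library left out the difference ranged from -1.03 to -0.88 and the limma adjusted p from 0.00606 to 0.296. It missed the threshold without either rivaroxaban library and without either dabigatran library, and in 5 of 8 other settings. Csf1 did not differ between the drugs beyond its spread, and the 95% interval of the difference was -0.27 to 0.27 on the log2 scale. For Ccl12 the difference of 0.82 (95% interval 0.198 to 1.43, limma adjusted p = 0.449) did not pass. Libraries did not overlap for 3 of 8 members, against 39.7% of all genes.

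**Figure D3:**
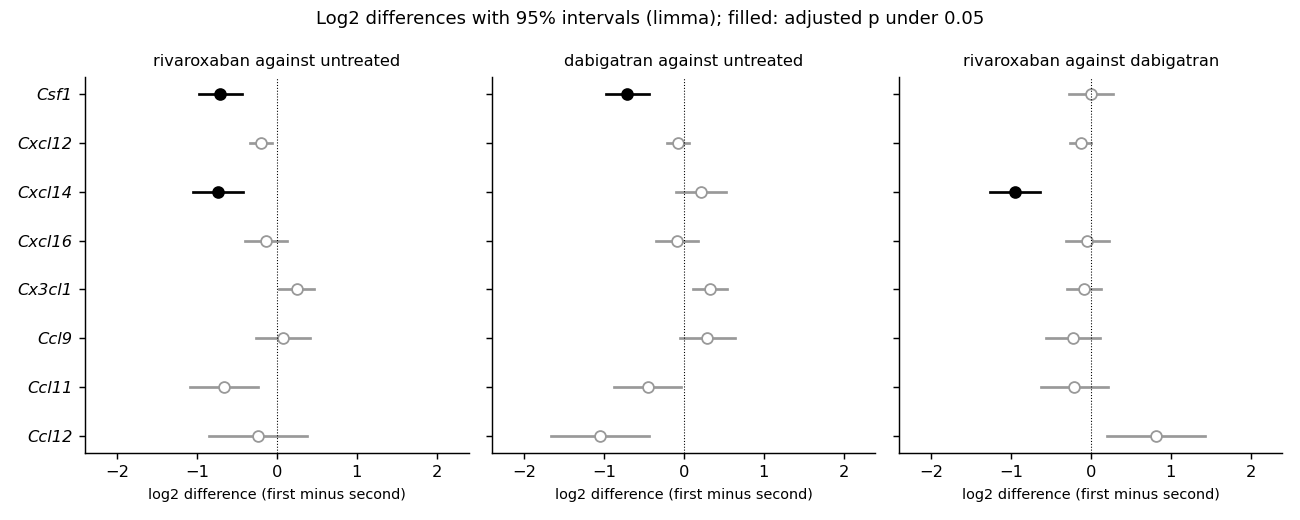
Log2 differences of the 8 members (x axis, first group minus second) with 95% intervals from limma, for the 3 comparisons; filled black points passed an adjusted p of 0.05. Csf1 is filled for both drugs at -0.71, and Cxcl14 for rivaroxaban against untreated libraries (-0.74) and against dabigatran (-0.955).

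The receptors give the other side of each axis. Csf1r, the receptor of Csf1, was at 6.23 and 6.25 log2 CPM in untreated libraries, 6.42 and 6.25 with rivaroxaban and 6.28 and 6.40 with dabigatran. No fall was measured: the difference was 0.09 for each drug, with a 95% interval of -0.063 to 0.25 (limma adjusted p = 0.532 and 0.595). Il34, which encodes the other ligand of Csf1r, had differences of 0.098 and 0.26 that did not pass (limma adjusted p = 0.748 and 0.401). Cxcr4 and Ackr3, which bind Cxcl12, had differences between -0.11 and 0.15 with either drug. Cxcr6 and Ccr3 were not analysed here.

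Among the 6 listed receptors of the members, Cx3cr1, Ccr2 and Ccr1 had negative differences with both drugs that did not pass. Cx3cr1, which binds Cx3cl1, was at 3.71 and 3.48 log2 CPM in untreated libraries, 2.97 and 2.41 with rivaroxaban and 2.38 and 3.35 with dabigatran. The treated libraries lay lower but were widely spread, with log2 differences of -0.91 (limma adjusted p = 0.113) and -0.73 (limma adjusted p = 0.232). Ccr2, the receptor of Ccl12, had differences of -0.41 and -0.61 (limma adjusted p = 0.373 and 0.217), and Ccr1, the receptor of Ccl9, of -0.41 and -0.93 (limma adjusted p = 0.526 and 0.182). The corresponding medians over all tested genes were 0.005 and 0.0026. Ccr2 had only 43 to 86 reads per library and Ccr1 only 18 to 55.

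**Figure D4:**
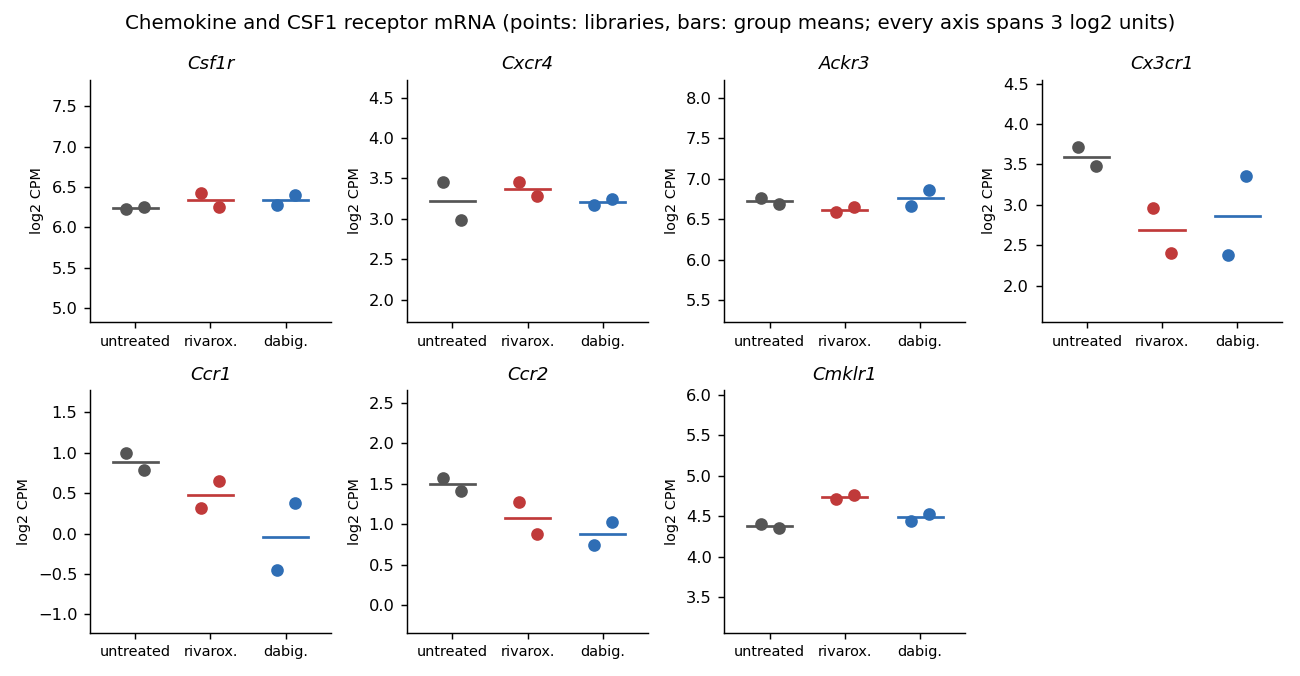
Log2 CPM (y axis) of Csf1r, Cxcr4, Ackr3, Cx3cr1, Ccr1, Ccr2 and Cmklr1 in the untreated, rivaroxaban and dabigatran libraries (x axis); points are libraries, bars are means of 2, and every panel spans the same range. Csf1r stays between 6.23 and 6.42 in all 6 libraries, while Cx3cr1 lies at 2.38 to 3.35 in treated libraries and at 3.48 and 3.71 in untreated ones.

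Of the other chemokine receptors, 3 of 13 were tested, and Cmklr1, the receptor of the attractant chemerin, rose with rivaroxaban. It was at 4.41 and 4.35 log2 CPM in untreated libraries, 4.71 and 4.76 with rivaroxaban and 4.45 and 4.52 with dabigatran, a 1.28-fold rise with rivaroxaban (log2 0.36, SE 0.08, limma adjusted p = 0.0353). The rivaroxaban libraries stood above the rest. The call was lost without any 1 of the 4 libraries compared (log2 0.33 to 0.39). It was also lost without the mean-variance trend (limma adjusted p = 0.129) and with quantile normalization (log2 0.34, limma adjusted p = 0.0525). Dabigatran gave 0.11 (limma adjusted p = 0.563).

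The other chemokine ligands did not pass in limma in any comparison. Of 31, 17 were listed and 8 tested, and 0 were called for either drug against untreated, with 0 at an unadjusted p under 0.05 and 0 by voom. Between the drugs 0 were called, with 1 at an unadjusted p under 0.05 and 0 by voom. Of 6 tested proteases that trim or shed these ligands, 0 were called in limma and 0 by voom with either drug, while 2 had an unadjusted p under 0.05 with each drug. These were Dpp4, which trims Cxcl12 and Ccl11 and had differences of -0.55 (limma adjusted p = 0.0752) and -0.47 (limma adjusted p = 0.138), and Mmp9, with -0.81 (limma adjusted p = 0.078) and -0.64 (limma adjusted p = 0.178). Both are named after their values were seen. Of all 12981 tested genes, 2233 had an unadjusted p under 0.05 with rivaroxaban, 1904 with dabigatran and 1094 between the drugs. The count of 2 is thus no result about the proteases. Adam10 and Adam17, the enzymes that shed Cx3cl1 and Cxcl16, had differences between 0.026 and 0.11.

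The following cell type markers were measured beside these genes. Of all 12981 tested genes, 2.46% were called in limma with rivaroxaban and 1.88% with dabigatran. An unadjusted limma p under 0.05 was found for 2233 and 1904 of them. A single called gene in a list below is thus no result about a cell type. Of 14 macrophage markers, 1 (Cd163) rose with rivaroxaban (log2 0.55, limma adjusted p = 0.0432), and 4 had an unadjusted p under 0.05. Besides Cd163 these were Mertk, which was higher (log2 0.33), and Timd4 and Cd14, which were lower (log2 -0.50 and -0.31). With dabigatran 0 of the 14 were called (0 at an unadjusted p under 0.05 and 0 by voom). Summed, the 14 were at 484.8 and 529.4 CPM in untreated libraries, 489.5 and 556.0 with rivaroxaban and 505.8 and 526.8 with dabigatran. The groups overlapped in this sum. Of 10 fibroblast markers 0 were called with either drug (1 at an unadjusted p under 0.05 and 0 by voom for each), with summed levels of 3217 to 3482 CPM. Of 10 endothelial markers, Emcn fell with rivaroxaban (log2 -0.43, limma adjusted p = 0.00336) and Flt1 rose with dabigatran (log2 0.29, limma adjusted p = 0.0376). Of 8 mural cell markers, Myh11, a smooth muscle myosin, fell with rivaroxaban (log2 -0.34, limma adjusted p = 0.0416), and it was not called by voom.

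Mesothelial markers, of the layer that covers the heart, moved with the drugs. Of 10, 8 fell (Msln, Upk3b, Upk1b, Krt18, Krt19, Gpm6a, Lrrn4 and Rspo1) and 1 (Wt1) rose with rivaroxaban, and 3 fell (Msln, Upk3b and Gpm6a) and 1 (Wt1) rose with dabigatran. Of all tested genes, 0.986% were called lower with rivaroxaban and 0.501% with dabigatran. The list was chosen with earlier results of these data known. Summed, the 10 were at 94.2 and 99.8 CPM in untreated libraries, 51.8 and 61.3 with rivaroxaban and 66.4 and 68.5 with dabigatran. In every library 0 of them had no reads. The treated libraries were lower in this list and in Csf1, and Cxcl14 was lower with rivaroxaban only. The part of this layer in the Csf1 and Cxcl14 differences was not tested.

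Of the monocyte and lymphocyte lists, 1 gene each was called. Of 8 monocyte markers 5 were tested, and Nr4a1, which is also an early response gene of many cell types, rose with rivaroxaban (log2 1.60, limma adjusted p = 0.0115) and with dabigatran (log2 2.53, limma adjusted p = 0.00119). The summed level of this list was 42.2 and 50.2 CPM in untreated libraries, 80.5 and 87.9 with rivaroxaban and 177.4 and 103.1 with dabigatran. Nearly all of that rise was Nr4a1: the other 7 listed genes summed to 27.9 and 28.5 CPM in untreated libraries, 30.1 and 30.7 with rivaroxaban and 31.4 and 31.6 with dabigatran. The median log2 difference of the tested genes was -0.18 and -0.21, and the differences of Ccr2, Spn and Itgal were negative with both drugs but did not pass. Ly6c2 went the other way, with differences of 0.24 and 0.32 that did not pass either (limma adjusted p = 0.165 and 0.0891). Of 10 T, NK and B cell markers 4 were tested, and Cd247, a chain of the T cell receptor complex, fell with rivaroxaban (log2 -1.29, limma adjusted p = 0.0149). The summed level of this list was 12.4 and 12.2 CPM in untreated libraries, 9.81 and 7.74 with rivaroxaban and 8.92 and 9.83 with dabigatran. Without Cd247 the sums were 6.07 and 5.29, then 6.32 and 5.68, and then 4.14 and 6.0 CPM in the same order, so the groups overlapped.

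The genes whose profile over the 6 libraries was most like a called member were taken as those with the smallest root mean square difference after each gene was centred on its own mean, among the 9160 genes that averaged 3 or more log2 CPM. For Csf1 they were Spi1, which encodes the myeloid transcription factor PU.1 (0.124 log2 units), Alox12, a lipoxygenase (0.126), and Slc9a3r1, a scaffold protein (0.142), where the profile of Csf1 itself had a root mean square of 0.366. Spi1 was at 3.80 and 3.44 log2 CPM in untreated libraries, 3.28 and 3.07 with rivaroxaban and 3.19 and 3.10 with dabigatran. For Cxcl14 they were Slc7a15, a member of an amino acid transporter family (0.197), Inmt, a methyltransferase (0.205), and Tcf15, a transcription factor (0.212), against 0.438 for Cxcl14 itself. Inmt was at 3.68 and 3.74 log2 CPM with rivaroxaban, 4.63 and 4.89 in untreated libraries and 4.81 and 4.35 with dabigatran. With 6 libraries and this many genes, close profiles arise easily, and these are given as a description.

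**Figure D5:**
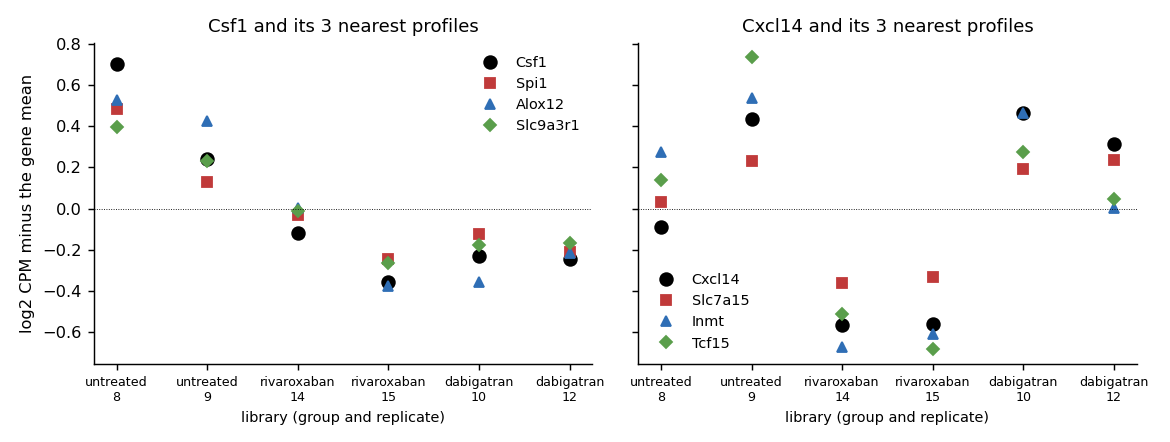
Centred log2 CPM (y axis, each gene minus its mean) in the 6 libraries (x axis) for Csf1, Cxcl14 and the 3 genes nearest to each. Csf1, Spi1, Alox12 and Slc9a3r1 are above their means in both untreated libraries, and Cxcl14, Slc7a15, Inmt and Tcf15 are below theirs in both rivaroxaban libraries.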

How the data were processed

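Poly-A RNA libraries (6, from heart tissue) were made with a directional kit, per the labels' protocols. STAR, Trim Galore, FastQC, bcl2fastq, edgeR and the mm10 build appear in the submitters' processing notes. The read counter, annotation and tool versions were not given in the sources used here. The authors deposited TMM-scaled log2 CPM, per the file's name. Every library has the same lowest possible value (-4.04), as an added constant would give, so differences of low genes are understated. With that floor subtracted, 100% of low values (under 200 steps) were whole multiples of 1 read within 0.02 reads, which gave the reads quoted; CPM values here are net of the floor. Every sample column was used.

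Of 16229 genes, the 12981 averaging 0 or more log2 CPM were fitted with limma 3.58.1 in R 4.3.3: 3 group means over 6 libraries, eBayes with a mean-variance trend, 3 residual and 7.75 prior degrees of freedom, two-sided tests, Benjamini-Hochberg adjustment over all tested genes per comparison, threshold 0.05. The fit was also run on simulated counts with planted differences and the same spread setting for every gene. That setting differs from these data, so the run is only a check of the code and says nothing about the calls. Positions and exon lengths are from GENCODE M21 on GRCm38, matched by Ensembl identifier. No molecular identifiers are recorded, so reads may include copies of 1 molecule. Members, lists and the rule for named genes (all members, receptors of members, every called gene of the related ligand, receptor and protease lists, and the 3 nearest profiles of each called member) were chosen with earlier results of these data known. Alternatives were limma without the trend, other filters, log2(CPM + 1), median centring, quantile normalization, only the 2 groups compared, each library left out and, added after the data were seen, voom on the recovered reads. A result on 1 gene is not reported here.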

Additional observations from a re-analysis of the deposited data

How the results depend on the processing

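No paired analysis was possible because the groups share no replicate numbers. The planned edgeR and DESeq2 tests were not run, since the deposited values are log2; voom on the recovered reads took their place. With rivaroxaban against untreated hearts, 2 members passed (0 without the mean-variance trend, 0 to 2 with 1 library left out). With dabigatran 1 passed (0 without the trend, 0 to 1 with 1 library left out). Between the drugs 1 passed, and 0 passed without the trend, with a filter at a mean log2 CPM of at least 1, with log2(CPM + 1), with quantile normalization, with voom on recovered reads, and 0 to 1 with 1 library left out. Without the trend 0 genes of the whole table passed in any comparison, against 319, 244 and 10. With 1 library left out these counts ranged from 61 to 410, from 73 to 270 and from 0 to 20, and quantile normalization gave 154 with dabigatran and 1 between the drugs, where voom gave 1 and the 2 groups alone 6. The cause was not tested. None of the called members changed sign in a comparison where it passed. Uncalled differences changed sign with 1 library left out for Ccl9 with rivaroxaban (-0.141 to 0.29), for Cxcl14 (-0.045 to 0.48) and Cxcl16 (-0.26 to 0.08) with dabigatran, and between the drugs for Csf1 (-0.119 to 0.12, and -0.005 with median centring), Cxcl16 (-0.214 to 0.126) and Ccl11 (-0.44 to 0.026). With 2 libraries per group, only large or tight differences could pass. Ccl12 had only 17 to 51 reads per library, and the part of depth in its result was not tested.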
